A study of Mus musculus with 16 samples.

Results

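The Hox genes encode homeodomain transcription factors and lie in 4 clusters, which are named Hoxa, Hoxb, Hoxc and Hoxd. Their expression was described here in 4 sorted populations of mouse thymic epithelial cells. Members were selected by annotation alone, as every protein-coding gene whose mouse symbol is Hox followed by the cluster letter and a paralogue number. All 39 such genes of the GRCm38 annotation were present among the 43432 genes of the count files. The family was proposed with results of these data already known, so its choice is not independent of them. The cells came from C57BL6.Aire-CreERT2.Ai14 mice of mixed sex aged 5 to 6 weeks, all of which had received 2 mg tamoxifen and were studied after a chase of 7 days. In this strain the Aire promoter drives a tamoxifen-dependent Cre and Ai14 is a Cre reporter, so red fluorescence (RFP) marks cells in which Cre had acted. Live cells (DAPI-) that were CD45- and EPCAM+ were split by flow cytometry. High MHC class II on the surface defined the gates RFP- MHCIIhi and RFP+ MHCIIhi, and low MHC class II defined RFP- MHCIIlo together with RFP+ MHCIIlo. Each population was sequenced as 4 replicates, and 12 mice were pooled for each replicate. An RFP- cell may have expressed Aire outside the window of the tamoxifen label. There was no group without tamoxifen and none without the transgenes, so all 4 groups share both.

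Along the body axis, Hox genes are expressed in an order that follows their order in the cluster. Low paralogue numbers (anterior genes) act in the hindbrain and pharyngeal arches, and high numbers (posterior genes) in the lumbar and tail region, the distal limb and the hindgut. Hoxa3 is needed for the formation of the thymus and parathyroid from the third pharyngeal pouch. Medullary thymic epithelial cells also transcribe many genes that are otherwise restricted to other tissues, in part under the control of Aire, and display their products to developing T cells. In what follows, positions 1 to 3 are called anterior, 4 to 8 central and 9 to 13 posterior.

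Hox transcripts were rare in all libraries. Library totals ran from 7.93 to 19.46 M counted reads, and all 39 genes together received 386 to 1617 reads per library. The number of sorted cells behind a library was 19400 to 20500 in RFP+ MHCIIlo and 80500 to 164000 elsewhere. Between 37 and 39 members had a read in each MHCIIhi library, against 28 to 34 in the MHCIIlo libraries. Depth differed as well, at 11.6 to 19.46 M counted reads in the MHCIIhi and 7.93 to 13.8 M in the MHCIIlo libraries. Its part in these numbers of detected members was not tested. The summed levels of 6 epithelial markers, among them Epcam and Krt5, ran from 1711 to 4204 CPM (read counts normalised to the TMM-scaled library size) over the 16 libraries. Summed markers of mature medullary cells (Aire, Cd80 and 5 others) reached 13450 to 15240 CPM in the MHCIIhi libraries and 2402 to 5455 CPM in the MHCIIlo libraries. Transcripts of other cell types were present in all populations. These are bulk samples, so a smaller number of expressing cells and less RNA per cell cannot be told apart.

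The parts of these transcripts that encode the DNA-binding homeodomain are shown for 4 genes on which the results turn: the anterior Hoxa2, which was highest in RFP- MHCIIlo, and 3 posterior genes that were highest in MHCIIhi cells. Each line gives the 180 bases of the homeobox, 5′ to 3′ on the coding strand, read from the GENCODE M21 transcript. Capitals mark the codons of residues 48 to 53 of the 60-residue homeodomain, which lie in the recognition helix. On GRCm38, Hoxa2 lies at chr6:52162417-52164831, Hoxa3 at chr6:52169062-52213336 and Hoxa10 at chr6:52231197-52240854, all on the minus strand. Hoxb13 lies at chr11:96194316-96197447 and Hoxc11 at chr15:102954427-102957708, both on the plus strand.
Hoxa2 homeobox: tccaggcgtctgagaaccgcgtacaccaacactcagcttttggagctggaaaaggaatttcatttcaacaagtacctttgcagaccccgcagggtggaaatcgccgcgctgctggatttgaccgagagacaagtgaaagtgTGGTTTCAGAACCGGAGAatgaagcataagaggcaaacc
Hoxa10 homeobox: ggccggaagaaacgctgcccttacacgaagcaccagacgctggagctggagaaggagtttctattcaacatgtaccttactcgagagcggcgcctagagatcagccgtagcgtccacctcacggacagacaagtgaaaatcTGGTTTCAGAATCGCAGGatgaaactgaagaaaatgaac
Hoxb13 homeobox: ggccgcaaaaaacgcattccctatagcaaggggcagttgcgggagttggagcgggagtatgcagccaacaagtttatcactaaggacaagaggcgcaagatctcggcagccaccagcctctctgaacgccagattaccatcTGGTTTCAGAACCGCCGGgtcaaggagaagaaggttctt
Hoxc11 homeobox: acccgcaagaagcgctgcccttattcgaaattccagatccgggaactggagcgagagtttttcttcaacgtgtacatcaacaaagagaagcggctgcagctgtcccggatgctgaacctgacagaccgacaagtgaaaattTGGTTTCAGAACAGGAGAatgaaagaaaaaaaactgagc
Hoxa10 and Hoxc11 shared 70.0% of the homeobox bases. Hoxa2 and Hoxb13, from opposite ends of the series, shared 46.7%. Over the 42 pairs of genes at the same paralogue position, identity was 67.2 to 93.9% with a median of 80.6%, against a median of 60.6% over the 699 other pairs. The longest identical run in any pair was 52 bases (Hoxa6 and Hoxb4), so a short read inside the homeobox can match more than 1 member.

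The start-site windows of Hoxa2 and Hoxa3, which moved together, and of Hoxa10, which moved the opposite way between the RFP- gates, are shown from RefSeq (GRCm38.p6; for Hoxa10 the more 3′ of its pair of windows), from 250 bases before to 50 bases after the start, on the gene's own strand. Capitals mark each CG, a C followed by a G. The windows are chr6:52164782-52165081, chr6:52213018-52213317 and chr6:52234890-52235189, all on the minus strand. That of Hoxa3 lies near the 5′ end of this long gene, between Hoxa6 and Hoxa7, and its use in these cells was not tested.
Hoxa2 start window: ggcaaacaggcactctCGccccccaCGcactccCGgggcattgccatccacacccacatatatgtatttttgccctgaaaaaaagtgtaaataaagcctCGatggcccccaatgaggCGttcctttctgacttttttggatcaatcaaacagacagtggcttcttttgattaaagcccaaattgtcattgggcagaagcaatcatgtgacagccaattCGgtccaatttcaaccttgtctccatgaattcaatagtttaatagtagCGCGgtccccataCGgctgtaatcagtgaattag
Hoxa3 start window: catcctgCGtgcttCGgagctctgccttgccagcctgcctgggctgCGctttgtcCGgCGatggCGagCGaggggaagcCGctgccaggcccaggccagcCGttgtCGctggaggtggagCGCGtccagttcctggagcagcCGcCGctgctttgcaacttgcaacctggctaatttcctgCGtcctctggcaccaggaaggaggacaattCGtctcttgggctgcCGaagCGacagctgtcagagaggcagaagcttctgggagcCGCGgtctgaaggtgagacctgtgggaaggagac
Hoxa10 start window: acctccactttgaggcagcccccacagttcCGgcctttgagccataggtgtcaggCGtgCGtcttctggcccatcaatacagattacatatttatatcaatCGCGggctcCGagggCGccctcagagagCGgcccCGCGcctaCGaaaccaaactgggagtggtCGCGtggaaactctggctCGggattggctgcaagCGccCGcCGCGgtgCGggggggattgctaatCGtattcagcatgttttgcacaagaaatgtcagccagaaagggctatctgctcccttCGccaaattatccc
These held 9, 20 and 21 CG. The table had 24 windows for 22 of the members, with a median of 14.5 CG (range 4 to 45) against 7 over all 32851 windows. The sequence TGATTNAT, a composite recognition sequence of Hox and Pbx proteins, was searched on both strands and was found in 2 of the 24 windows (8.33%, those of Hoxa2 and Hoxd11) and in 3.22% of all windows. TATAAA, also searched on both strands, was found in 16.7% of the Hox windows and 13.6% of all windows. Matches of TGATTNAT and TATAAA could overlap in part. A match is a description of the letters and not of binding.

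Of the 39 members, 28 had enough reads to be tested and 11 did not. All 9 Hoxc genes were tested, 8 of 11 Hoxa genes, 8 of 10 Hoxb genes and 3 of 9 Hoxd genes. Among those too low to test were Hoxa6 with 21 reads in all 16 libraries together, Hoxa11 with 33, Hoxb1 with 70, Hoxb2 with 42, Hoxd3 with 116, Hoxd9 with 45, Hoxd10 with 61, Hoxd11 with 47, Hoxd12 with 17 and Hoxd13 with 102. The filter required about 10 reads in at least 4 libraries, so a gene could pass through the population where it was high, and counts over the 28 tested genes do not describe all members.

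**Figure D1:**
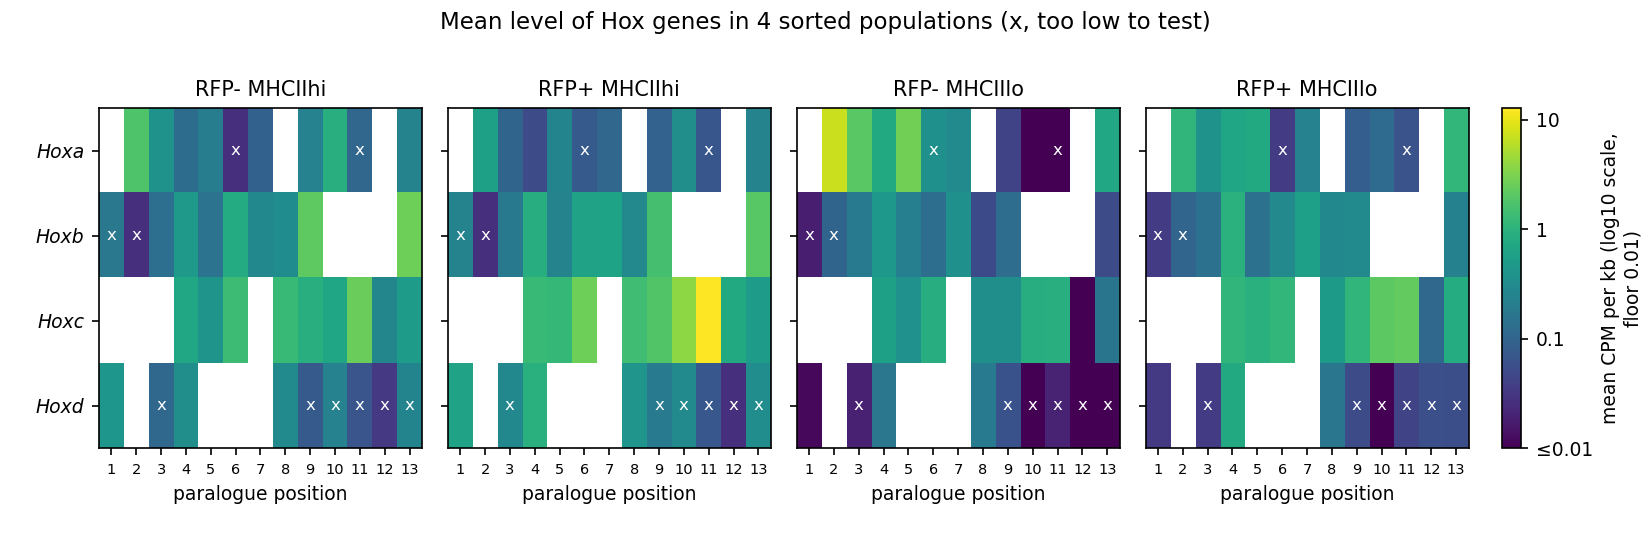
Mean level of each Hox gene in the 4 populations, as CPM per kilobase of exon on a log10 colour scale with values at or below 0.01 set to 0.01; rows are clusters, columns are paralogue positions, white cells have no gene or are not reported here, and x marks genes too low to test. Levels up to 7.27 at the left of the Hoxa row mark RFP- MHCIIlo, and the highest level of all (12.7 for Hoxc11) is in RFP+ MHCIIhi.

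The populations differed in the shares that anterior and posterior genes held of the Hox signal, and single genes carried much of these shares. Levels of different genes are compared here per kilobase of exon. Summed over all members, the level was 21.8 ± 1.65 CPM per kb in RFP- MHCIIhi, 37.9 ± 2.18 in RFP+ MHCIIhi, 21.4 ± 2.12 in RFP- MHCIIlo and 19.1 ± 1.37 in RFP+ MHCIIlo (mean ± SD, n = 4). Anterior genes made up 47.8 ± 6.97% of this sum in RFP- MHCIIlo, 14.6 ± 1.75% in RFP- MHCIIhi, 10.2 ± 2.82% in RFP+ MHCIIlo and 5.43 ± 0.654% in RFP+ MHCIIhi. The ranges of the anterior share over libraries did not overlap between RFP- MHCIIlo (40.6 to 54.4%) and any other population. Posterior genes made up 65.5 ± 1.04% in RFP+ MHCIIhi, 53.9 ± 2.82% in RFP- MHCIIhi, 45.1 ± 2.56% in RFP+ MHCIIlo and 15.4 ± 0.536% in RFP- MHCIIlo. By cluster, Hoxa genes held 69.1 ± 2.13% of the sum in RFP- MHCIIlo. In RFP+ MHCIIhi they held 5.17 ± 1.38% and Hoxc genes 68.9 ± 3.05%. Hoxb genes had their largest share, 32.8 ± 2.12%, in RFP- MHCIIhi, and Hoxd genes stayed at or below 9.83% in every library. Hoxa2 alone made up 7.27 of the 10.1 CPM per kb of anterior genes in RFP- MHCIIlo, and Hoxc11 made up 12.7 of the 24.8 CPM per kb of posterior genes in RFP+ MHCIIhi. The anterior Hoxb1, Hoxd1 and Hoxd3 went the other way, with their lowest means in RFP- MHCIIlo (2, 1 and 3 reads). These shares are descriptions and were not tested.

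**Figure D2:**
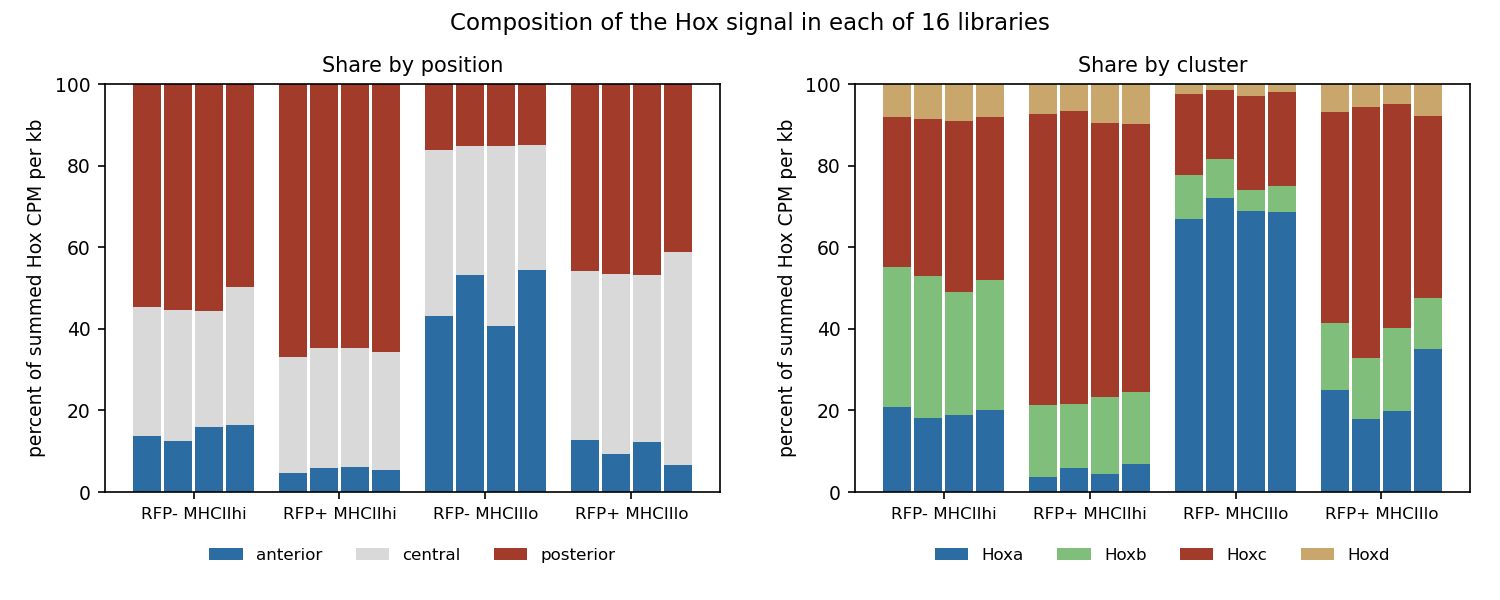
Share of the summed Hox CPM per kb held by anterior, central and posterior genes (left) and by each cluster (right), 1 bar per library with replicates 1 to 4 side by side and a y axis from 0 to 100%. The 4 RFP- MHCIIlo bars carry 40.6 to 54.4% anterior signal, and the 4 RFP+ MHCIIhi bars 64.6 to 66.9% posterior signal.

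The population with the highest mean also differed by position and cluster. RFP- MHCIIlo had the highest mean for Hoxa2 to Hoxa7 and Hoxb3. RFP+ MHCIIhi had it for 19, among them 8 of the 9 Hoxc and 8 of the 9 Hoxd genes, and RFP- MHCIIhi for 7, which were Hoxa9, Hoxa10, Hoxa11, Hoxb6, Hoxb8, Hoxb9 and Hoxb13. Another 5 (Hoxa13, Hoxb2, Hoxb4, Hoxc13 and Hoxd12) were highest in RFP+ MHCIIlo, Hoxd12 through replicate 4 alone. RFP- MHCIIlo had the lowest mean for 24 of the 39. Some highest means were near ties. Hoxb2 was at 0.360 CPM in RFP+ MHCIIlo and 0.351 in RFP- MHCIIlo, and Hoxd11 at 0.294 in RFP+ MHCIIhi and 0.278 in RFP- MHCIIhi. These ranks were not tested, and 6 of the Hoxd genes were too low to test. Per kilobase, the leading members were Hoxb13 (2.60 CPM per kb), Hoxc11 (2.51) and Hoxb9 (2.15) in RFP- MHCIIhi. In RFP+ MHCIIhi they were Hoxc11 (12.7), Hoxc10 (3.73) and Hoxc6 (2.66). Hoxa2 (7.27), Hoxa5 (2.78) and Hoxa3 (2.04) led in RFP- MHCIIlo, and Hoxc11 (2.29), Hoxc10 (2.09) and Hoxc6 (1.15) in RFP+ MHCIIlo. Libraries of neighbouring genes in these orders overlapped, except that Hoxa2 and Hoxa3 in RFP- MHCIIlo and Hoxc11, Hoxc10 and Hoxc6 in RFP+ MHCIIhi were each separated from the next gene.

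In the Hoxa cluster the anterior genes were concentrated in RFP- MHCIIlo. Hoxa2, which patterns the hindbrain and the second pharyngeal arch, was at 12.97, 14.6, 12.3 and 11.8 CPM in the 4 RFP- MHCIIlo libraries, 2.69, 2.84, 3.53 and 3.56 in RFP- MHCIIhi, 2.59, 1.83, 2.18 and 1.24 in RFP+ MHCIIlo and 0.624, 1.46, 1.10 and 0.982 in RFP+ MHCIIhi. Every RFP- MHCIIlo library lay above every other library. Hoxa3 was at 9.46, 11.3, 11.9 and 16.3 CPM in RFP- MHCIIlo against 2.64, 2.26, 2.30 and 1.90 in RFP- MHCIIhi, and at 1.84, 2.44, 3.53 and 1.74 in RFP+ MHCIIlo against 0.468, 0.933, 0.329 and 0.702 in RFP+ MHCIIhi. Its RFP- MHCIIlo libraries too lay above every other library, and RFP- MHCIIhi and RFP+ MHCIIlo overlapped. The exons of Hoxa3 share 27.1% of their bases with 5 other annotated genes, and those of Hoxa2 share 15.0%. The strand setting of the counting is unknown from the sources used, and reads of Hox genes and antisense partners may be mixed.

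Hoxa4 was at 0.744, 1.10, 1.71 and 1.38 CPM in RFP- MHCIIlo against 0.278, 0.258, 0.154 and 0.115 in RFP- MHCIIhi, and at 1.19, 0.366, 0 and 2.82 in RFP+ MHCIIlo against 0.0780, 0.0583, 0.0549 and 0.140 in RFP+ MHCIIhi. The RFP+ MHCIIlo replicates ran from no read in replicate 3 to the highest value of all 16 libraries in replicate 4. Hoxa5, a regulator of lung development, was at 6.59, 3.82, 8.02 and 2.41 CPM in RFP- MHCIIlo against 0.325, 0.323, 0.537 and 0.345 in RFP- MHCIIhi, and at 1.08, 0.975, 0.208 and 3.48 in RFP+ MHCIIlo against 0.312, 0.583, 0.384 and 0.632 in RFP+ MHCIIhi. RFP+ MHCIIlo replicate 4 again stood above the other 3 of its group. Hoxa7 was at 0.850, 0.933, 0.938 and 0.774 CPM in RFP- MHCIIlo against 0.232, 0.129, 0.230 and 0.459 in RFP- MHCIIhi, and at 0.108, 0.244, 0.831 and 1.58 in RFP+ MHCIIlo against 0.156, 0.292, 0.274 and 0.491 in RFP+ MHCIIhi. Its RFP- MHCIIlo libraries were close to each other, and its RFP+ MHCIIlo libraries spread over the whole range. Hoxa6, which was not tested, had 14 of its 21 reads in RFP- MHCIIlo.

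The posterior Hoxa genes had other patterns. Hoxa9, known from blood progenitors and leukaemia, was at 1.30, 1.10, 1.23 and 1.72 CPM in RFP- MHCIIhi against 0.312, 0.817, 0.494 and 0.491 in RFP+ MHCIIhi, and at 0.106, 0.339, 0.256 and 0.258 in RFP- MHCIIlo against 0, 0.488, 0.416 and 0.995 in RFP+ MHCIIlo. All RFP- MHCIIhi libraries lay above all the others. Hoxa10, which acts in the uterus and the lumbar spine, was at 3.06, 2.78, 3.38 and 2.24 CPM in RFP- MHCIIhi, 0.780, 1.11, 1.04 and 1.54 in RFP+ MHCIIhi and 0, 0.244, 0.208 and 1.16 in RFP+ MHCIIlo, and had no read in any of the 4 RFP- MHCIIlo libraries. Hoxa13, which is needed for digits and the hindgut, was at 2.70, 2.32, 3.01 and 3.15 CPM in RFP+ MHCIIlo against 2.34, 2.72, 1.37 and 0.602 in RFP- MHCIIlo, and at 0.546, 0.583, 0.549 and 0.772 in RFP+ MHCIIhi against 0.742, 0.774, 0.537 and 0.345 in RFP- MHCIIhi. It was the tested posterior Hoxa gene with its higher means in the MHCIIlo populations. Hoxa11 had 17 of its 33 reads in RFP- MHCIIhi and 1 in RFP- MHCIIlo, and shares 35.0% of its exon bases with the antisense gene Hoxa11os.

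Posterior genes held 66.5% ± 3.57 (SD, n = 4) of the Hoxb signal per kilobase in RFP- MHCIIhi and 53.4% ± 5.34 in RFP+ MHCIIhi, against 11.4% ± 4.91 in RFP- MHCIIlo and 18.1% ± 8.29 in RFP+ MHCIIlo. Hoxb9, expressed in the thoracic region of the embryo, was at 6.03, 6.20, 4.99 and 4.94 CPM in RFP- MHCIIhi against 4.29, 4.03, 4.39 and 3.37 in RFP+ MHCIIhi, and at 0.319, 0.509, 0.171 and 0.344 in RFP- MHCIIlo against 1.08, 0.488, 0.831 and 0.746 in RFP+ MHCIIlo. Hoxb13, a gene of the prostate, tail and distal hindgut, was at 5.71, 5.87, 6.60 and 4.77 CPM in RFP- MHCIIhi against 4.91, 3.68, 4.28 and 4.49 in RFP+ MHCIIhi, and at 0.106, 0.0848, 0.0853 and 0.172 in RFP- MHCIIlo against 0.972, 0.731, 0.104 and 0.249 in RFP+ MHCIIlo. For both genes all 8 MHCIIhi libraries lay above all 8 MHCIIlo libraries. Hoxb6 was at 1.62, 1.81, 1.46 and 1.44 CPM in RFP- MHCIIhi against 0.857, 0.933, 1.76 and 1.26 in RFP+ MHCIIhi, and at 0.532, 0.424, 0.0853 and 0 in RFP- MHCIIlo against 0.216, 0.244, 1.45 and 0.332 in RFP+ MHCIIlo. Its RFP+ MHCIIlo replicate 3 stood at the level of the MHCIIhi libraries. Hoxb8 was at 0.928, 0.774, 0.921 and 0.747 CPM in RFP- MHCIIhi against 0.624, 0.700, 0.713 and 1.05 in RFP+ MHCIIhi, and at 0.106, 0.255, 0.171 and 0 in RFP- MHCIIlo against 0.540, 0.366, 0.623 and 1.41 in RFP+ MHCIIlo. Only RFP- MHCIIlo was set apart from the other 3 populations, none of whose libraries was as low.

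Hoxb4, which promotes self-renewal of blood stem cells, was split by the RFP label. It was at 2.11, 2.28, 2.47 and 2.04 CPM in RFP+ MHCIIhi and 2.59, 2.56, 2.29 and 2.41 in RFP+ MHCIIlo, against 1.02, 1.16, 1.31 and 1.49 in RFP- MHCIIhi and 1.49, 0.933, 1.19 and 1.03 in RFP- MHCIIlo, with no overlap between RFP+ and RFP- libraries. Hoxb3 (means 0.581 to 0.804 CPM), Hoxb5 (0.411 to 0.689) and Hoxb7 (0.434 to 0.970) were called in none of the 4 comparisons of pairs of populations. Hoxb3 shares 52.9% of its exon bases with the antisense gene Hoxb3os. Hoxb1 had 64 of its 70 reads in the MHCIIhi populations, namely 27 in RFP- MHCIIhi and 37 in RFP+ MHCIIhi. Hoxb2 had 29 of its 42 reads in the MHCIIlo populations, namely 16 in RFP- MHCIIlo and 13 in RFP+ MHCIIlo.

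The Hoxc genes were highest in RFP+ MHCIIhi with the exception of Hoxc13. Hoxc11, a gene of the lumbosacral region and hindlimb, had the highest level per kilobase of any Hox gene in both RFP+ populations. It was at 24.4, 28.7, 25.7 and 24.2 CPM in RFP+ MHCIIhi against 4.59, 4.97, 5.14 and 5.57 in RFP- MHCIIhi, and at 3.78, 5.36, 5.19 and 4.15 in RFP+ MHCIIlo against 1.06, 1.36, 2.56 and 2.15 in RFP- MHCIIlo. Every RFP+ MHCIIhi library was above every other library, and RFP- MHCIIlo was below the other 3 populations. Its neighbour Hoxc10 was at 7.02, 8.17, 6.97 and 6.32 CPM in RFP+ MHCIIhi against 4.21, 3.78, 2.18 and 5.80 in RFP+ MHCIIlo, and at 0.789, 1.10, 2.00 and 1.21 in RFP- MHCIIhi against 2.76, 1.19, 1.96 and 0.688 in RFP- MHCIIlo. It was higher in RFP+ than in RFP- cells, with an overlap only between the lowest RFP+ MHCIIlo and the highest RFP- MHCIIlo library. Hoxc12 was at 0.780, 0.758, 0.768 and 0.842 CPM in RFP+ MHCIIhi, 0.371, 0.452, 0.230 and 0.0574 in RFP- MHCIIhi and 0, 0.244, 0.208 and 0 in RFP+ MHCIIlo, with no read in RFP- MHCIIlo. Hoxc13, which is needed for hair, was at 2.27, 2.44, 2.81 and 0.8292 CPM in RFP+ MHCIIlo against 2.03, 1.05, 1.26 and 0.772 in RFP+ MHCIIhi, and at 1.16, 1.16, 1.77 and 0.919 in RFP- MHCIIhi against 0.638, 0.0848, 0.171 and 0.688 in RFP- MHCIIlo. RFP- MHCIIlo was below every other library for Hoxc13.

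The central Hoxc genes and Hoxc9 completed the cluster. Hoxc4 was at 3.43, 3.50, 3.40 and 2.67 CPM in RFP+ MHCIIhi against 2.27, 4.02, 2.29 and 2.90 in RFP+ MHCIIlo, and at 2.18, 1.74, 1.69 and 1.67 in RFP- MHCIIhi against 1.70, 1.19, 2.64 and 0.430 in RFP- MHCIIlo. Hoxc5 was at 3.98, 4.14, 3.46 and 3.02 CPM in RFP+ MHCIIhi against 2.70, 3.29, 2.81 and 2.90 in RFP+ MHCIIlo, and at 1.07, 1.23, 1.84 and 0.919 in RFP- MHCIIhi against 0.957, 0.424, 1.79 and 1.46 in RFP- MHCIIlo. For Hoxc5 all 8 RFP+ libraries lay above all 8 RFP- libraries, while for Hoxc4 1 RFP- MHCIIlo library reached into the RFP+ range. Hoxc6, expressed in the thoracic region, was at 6.70, 7.12, 5.93 and 5.89 CPM in RFP+ MHCIIhi against 2.46, 3.55, 3.45 and 3.62 in RFP- MHCIIhi, and at 1.73, 4.88, 2.70 and 1.74 in RFP+ MHCIIlo against 1.70, 1.87, 1.96 and 2.75 in RFP- MHCIIlo. Hoxc8, which acts in the thoracic skeleton, was at 3.74, 4.90, 4.28 and 3.09 CPM in RFP+ MHCIIhi against 3.25, 3.36, 3.45 and 3.85 in RFP- MHCIIhi, and at 1.51, 1.34, 1.14 and 1.58 in RFP+ MHCIIlo against 0.850, 1.36, 0.768 and 1.03 in RFP- MHCIIlo. For Hoxc8 all MHCIIhi libraries lay above all MHCIIlo libraries, while for Hoxc6 RFP+ MHCIIlo replicate 2 lay above the RFP- MHCIIhi libraries. Hoxc9 was at 4.05, 4.49, 5.38 and 3.93 CPM in RFP+ MHCIIhi against 1.67, 1.42, 4.07 and 1.78 in RFP- MHCIIhi, and at 2.59, 3.41, 4.05 and 0.746 in RFP+ MHCIIlo against 0.744, 0.848, 0.768 and 1.03 in RFP- MHCIIlo, where replicate 3 of RFP- MHCIIhi and replicate 4 of RFP+ MHCIIlo stood away from their groups.

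Hoxd genes held the smallest share of the Hox signal except in RFP+ MHCIIhi, where Hoxa genes did. Hoxd4 was at 2.03, 2.98, 2.85 and 3.30 CPM in RFP+ MHCIIhi against 2.49, 1.71, 1.97 and 2.82 in RFP+ MHCIIlo, and at 0.835, 1.36, 0.844 and 1.03 in RFP- MHCIIhi against 0.744, 0.255, 0.597 and 0.430 in RFP- MHCIIlo, with all RFP+ libraries above all RFP- libraries. Hoxd3 and Hoxd4 share 62.8% and 52.3% of their exon bases with other genes, each other among them, so their values cannot be fully separated. Hoxd1, which is known from sensory neurons, was at 1.40, 0.758, 1.37 and 1.05 CPM in RFP+ MHCIIhi against 0.510, 0.323, 1.54 and 0.804 in RFP- MHCIIhi, and at 0, 0, 0 and 0.0860 in RFP- MHCIIlo against 0, 0, 0 and 0.249 in RFP+ MHCIIlo. Hoxd1 thus had 4 reads in the 8 MHCIIlo libraries, 1 in RFP- MHCIIlo and 3 in RFP+ MHCIIlo. Hoxd8 was at 1.09, 1.05, 1.26 and 1.19 CPM in RFP+ MHCIIhi against 1.21, 0.774, 0.461 and 0.861 in RFP- MHCIIhi, and at 0.638, 0.424, 0.938 and 0.0860 in RFP- MHCIIlo against 0.756, 0.244, 0.312 and 0.498 in RFP+ MHCIIlo. Of the posterior Hoxd genes, Hoxd10 had 27 reads in RFP- MHCIIhi, 34 in RFP+ MHCIIhi and none in either MHCIIlo population. Hoxd13, needed for digits, had 42 reads in RFP- MHCIIhi, 54 in RFP+ MHCIIhi, 1 in RFP- MHCIIlo and 5 in RFP+ MHCIIlo. Hoxd9 had 11, 24, 6 and 4 reads in the same order, Hoxd11 had 18, 18, 4 and 7, Hoxd12 had 6, 4, 0 and 7, and Hoxd3 had 32, 76, 3 and 5.

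**Figure D3:**
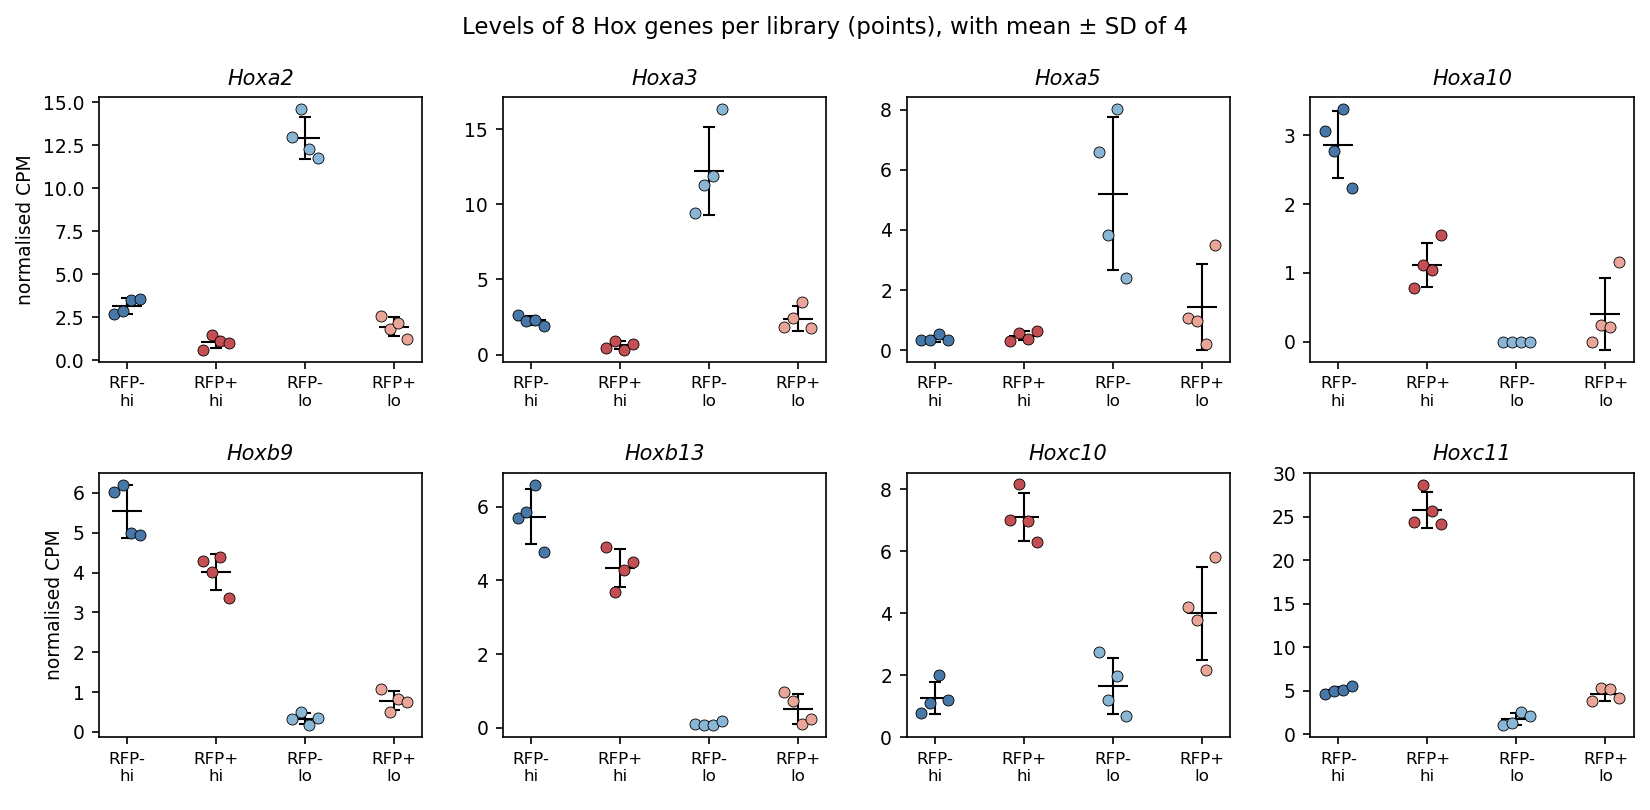
Normalised CPM of 8 Hox genes, 1 point per library, with the mean and SD of the 4 replicates as bars; hi and lo are the MHC class II gates and y axes are linear from 0 or just below it. Hoxa2 and Hoxa3 lie above 9 CPM in RFP- MHCIIlo alone, Hoxa10 has no read there, Hoxb9 and Hoxb13 split by the MHC class II gate, and Hoxc11 lies above 24 CPM in RFP+ MHCIIhi alone.

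The first comparison asked how MHCIIlo and MHCIIhi cells without the RFP label differed. Here and below, log2 differences are given with their SE, and adjusted p-values are those of edgeR's quasi-likelihood test with Benjamini-Hochberg adjustment over all 19617 tested genes. In RFP- MHCIIlo against RFP- MHCIIhi, 6 of the 28 tested Hox genes were higher, where 33.5% of all tested genes were, and 14 were lower, where 35.6% of all were. The median log2 difference was -0.67 over the Hox genes and -0.004 over all genes. All 6 that rose were Hoxa genes. The anterior Hoxa2 rose by 2.04 ± 0.20 (4.1-fold, adjusted p = 4.3e-09) and Hoxa3 by 2.42 ± 0.24 (5.35-fold, adjusted p = 4.3e-09). The central Hoxa4 rose by 2.54 ± 0.68 (adjusted p = 0.002), Hoxa5 by 3.76 ± 0.52 (adjusted p = 1.0e-06) and Hoxa7 by 1.69 ± 0.56 (adjusted p = 0.011). The posterior Hoxa13 rose by 1.52 ± 0.40 (adjusted p = 0.0017), although its lowest RFP- MHCIIlo library lay within the RFP- MHCIIhi range.

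Of the 14 that fell in RFP- MHCIIlo, 8 were posterior. Hoxb13 fell by 5.56 ± 0.42 (adjusted p = 4.5e-11) and Hoxb9 by 4.01 ± 0.30 (adjusted p = 3.1e-11). Hoxa10, with 192 reads in RFP- MHCIIhi and none in RFP- MHCIIlo, was at least 42.5-fold lower (adjusted p = 2.6e-07, bound from a floor of 3 counts over the group), and Hoxc12, with 19 reads against none, was at least 4.12-fold lower (adjusted p = 0.0023). Hoxa9 fell by 2.41 ± 0.54 (adjusted p = 0.00044), Hoxc9 by 1.35 ± 0.43 (adjusted p = 0.0074), Hoxc11 by 1.48 ± 0.21 (adjusted p = 1.1e-06) and Hoxc13 by 1.66 ± 0.52 (adjusted p = 0.0072). The central genes that fell were Hoxb6 by 2.62 ± 0.60 (adjusted p = 0.00046), Hoxb8 by 2.57 ± 0.58 (adjusted p = 0.00042), Hoxc8 by 1.78 ± 0.25 (adjusted p = 1.5e-06), Hoxc6 by 0.64 ± 0.28 (adjusted p = 0.043) and Hoxd4 by 1.02 ± 0.38 (adjusted p = 0.02). The anterior Hoxd1 had 50 reads in RFP- MHCIIhi and 1 in RFP- MHCIIlo, a ratio of 33 with a 95% counting interval of 5.66 to 1330 (adjusted p = 0.00015). The other 8 (Hoxb3, Hoxb4, Hoxb5, Hoxb7, Hoxc4, Hoxc5, Hoxc10 and Hoxd8) ran from -0.70 to 0.49 and did not pass. The call on Hoxc6 was lost in limma-voom (adjusted p = 0.056) and when any of RFP- MHCIIhi replicates 2 to 4, RFP- MHCIIlo replicates 1 to 3 or RFP+ MHCIIhi replicates 1 to 3 was left out (0.051 to 0.1). That on Hoxd4 was lost without RFP- MHCIIhi replicate 2 (adjusted p = 0.066) or RFP- MHCIIlo replicate 2 (0.077). With library sizes alone as the scaling, the median of all genes moved by -0.294 and the genes called went from 48.4% to 32.2% higher.

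Transcripts of other cell types differed between the same populations. The marker counts below stand against 33.5% of all genes that rose from RFP- MHCIIhi to RFP- MHCIIlo and 35.6% that fell. Of the mesenchyme markers (Col1a1, Dcn, Pdgfra and 7 others), 9 of 10 were tested, of which 7 rose and 1 fell from RFP- MHCIIhi to RFP- MHCIIlo. None of the 10 was at 0, and their sum was 633.5, 435.6, 982.4 and 574.7 CPM in the RFP- MHCIIlo libraries, 156 to 161.8 in RFP- MHCIIhi, 122.6 to 142.2 in RFP+ MHCIIhi and 55.86 to 175 in RFP+ MHCIIlo. The 6 mesothelium markers were all higher in RFP- MHCIIlo, at a sum of 410.6 to 609.4 against 82.65 to 93.01 CPM, and the 4 parathyroid markers summed to 312.5 to 988.2 against 52.27 to 58.29 CPM. All 5 tuft cell markers were higher, at 806.1 to 1351 against 65.16 to 82.15 CPM, and 6 of 9 endothelial markers were higher and none lower, at 62.19 to 96.94 against 33.62 to 36.18 CPM. All 10 thymocyte markers were lower, at 41.29 to 64.14 against 314 to 692.5 CPM, as were 7 of 8 myeloid markers, at 112.2 to 145.5 against 429.5 to 512 CPM. The part of these cells in the differences of Hoxa9 and the other Hox genes was not tested. Without RFP- MHCIIlo replicates 1 and 3, which held the most mesenchyme transcripts, the difference in RFP- cells was 2.07 for Hoxa2 (adjusted p = 3.4e-07), 2.59 for Hoxa3 (5.0e-08) and 3.02 for Hoxa5 (0.00016), while the calls on Hoxa7 (adjusted p = 0.054), Hoxc6 (0.22) and Hoxc9 (0.061) were lost, and Hoxc4 (-1.17, adjusted p = 0.018) and Hoxd8 (-1.69, 0.032) passed as lower. The kept libraries still held 435.6 and 574.7 CPM of mesenchyme transcripts, above the RFP- MHCIIhi libraries. Replicates 1 and 3 were also the highest of RFP- MHCIIlo for Hoxa5, so leaving them out had to lower its difference. This choice of libraries was made after seeing the data.

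The same comparison of gates in RFP+ cells, RFP+ MHCIIlo against RFP+ MHCIIhi, gave 5 Hox genes higher, where 27.5% of all genes were, and 10 lower, where 28.1% of all were. Median log2 differences were -0.33 for Hox and 0.007 for all genes. The anterior Hoxa3 rose by 1.94 ± 0.33 (adjusted p = 3.1e-05) and Hoxa2 by 0.86 ± 0.28 (adjusted p = 0.011), and the posterior Hoxa13 rose by 2.19 ± 0.39 (adjusted p = 4.5e-05). The central Hoxa4 (3.70 ± 0.82, adjusted p = 0.00051) and Hoxa5 (1.63 ± 0.57, adjusted p = 0.018) also passed. The size of both moved with RFP+ MHCIIlo replicate 4, and Hoxa5 also lost its call in limma-voom with all libraries (1.13, adjusted p = 0.19). Without RFP+ MHCIIlo replicate 4 the difference was 2.55 for Hoxa4 (adjusted p = 0.012) and 0.62 for Hoxa5 (0.38), and without replicates 1 and 4 together, chosen after seeing the data, it was 0.99 for Hoxa4 (0.46) and 0.23 for Hoxa5 (0.81). Replicates 4 and 1 were the highest of RFP+ MHCIIlo for both genes, so leaving them out had to lower both differences. Of the 9 tested mesenchyme markers, 3 were higher and 3 lower in this comparison, and their sum of 175 CPM in replicate 4 was the highest of the RFP+ libraries. All 5 tuft cell markers were higher, at 1696 to 2555 CPM in RFP+ MHCIIlo against 277.9 to 367.1 CPM in RFP+ MHCIIhi, while 6 of 8 myeloid markers were lower and 1 higher (187.7 to 274.4 against 678.2 to 701.3 CPM) and 5 of 6 B cell markers were lower. The part of these cells in the Hox differences was not tested. Hoxa2 lost its call without RFP+ MHCIIlo replicate 1 (adjusted p = 0.055) or with only the 8 libraries of this comparison in the fit (0.064).

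Posterior genes made up 6 of the 10 that fell. Hoxc11 fell by 2.48 ± 0.17 (adjusted p = 2.8e-11), Hoxb13 by 3.12 ± 0.34 (adjusted p = 5.7e-08), Hoxb9 by 2.33 ± 0.27 (adjusted p = 1.2e-07), Hoxc12 by 2.82 ± 0.72 (adjusted p = 0.0023), Hoxc10 by 0.82 ± 0.29 (adjusted p = 0.02) and Hoxa10 by 1.32 ± 0.55 (adjusted p = 0.05), the last just under the threshold before rounding. The central Hoxc8 fell by 1.52 ± 0.24 (adjusted p = 1.4e-05), Hoxc6 by 1.25 ± 0.26 (adjusted p = 0.0003) and Hoxd8 by 1.31 ± 0.48 (adjusted p = 0.025). Hoxd1 had 71 reads in RFP+ MHCIIhi and 3 in RFP+ MHCIIlo, a ratio of 14.8 with a 95% counting interval of 4.87 to 73.6 (adjusted p = 0.0002). The other 13 (Hoxa7, Hoxa9, Hoxb3, Hoxb4, Hoxb5, Hoxb6, Hoxb7, Hoxb8, Hoxc4, Hoxc5, Hoxc9, Hoxc13 and Hoxd4) ran from -1.10 to 1.24 and did not pass. Of these, Hoxb6 went from -1.10 to -2.16 without RFP+ MHCIIlo replicate 3 (adjusted p = 0.0038), Hoxa7 passed at 1.58 without replicate 1 of that population (0.017) and at 1.47 without replicate 2 (0.038), and Hoxc13 at 0.98 without replicate 4 (0.034). Hoxc9 passed as lower in 6 alternatives (adjusted p 0.012 to 0.049). Among them were the replicate block (0.035) and the fits without RFP+ MHCIIlo replicate 2 or 3 and without RFP- MHCIIhi replicate 3. The call on Hoxa10 was lost when any RFP- MHCIIhi library, RFP+ MHCIIhi replicate 2, 3 or 4 or RFP+ MHCIIlo replicate 1, 2 or 3 was left out (adjusted p 0.052 to 0.12), and without RFP+ MHCIIlo replicate 4 its difference was -2.85 (adjusted p = 0.00049). Hoxc10 lost its call without RFP+ MHCIIhi replicate 2 (adjusted p = 0.05, just above the threshold) or RFP+ MHCIIlo replicate 3 (0.064). Hoxd8 lost it without RFP+ MHCIIhi replicate 3 (0.054), RFP+ MHCIIlo replicate 2 (0.062) or replicate 3 (0.059). Hoxc12 moved to -3.45 without RFP+ MHCIIlo replicate 2 and kept its call.

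**Figure D4:**
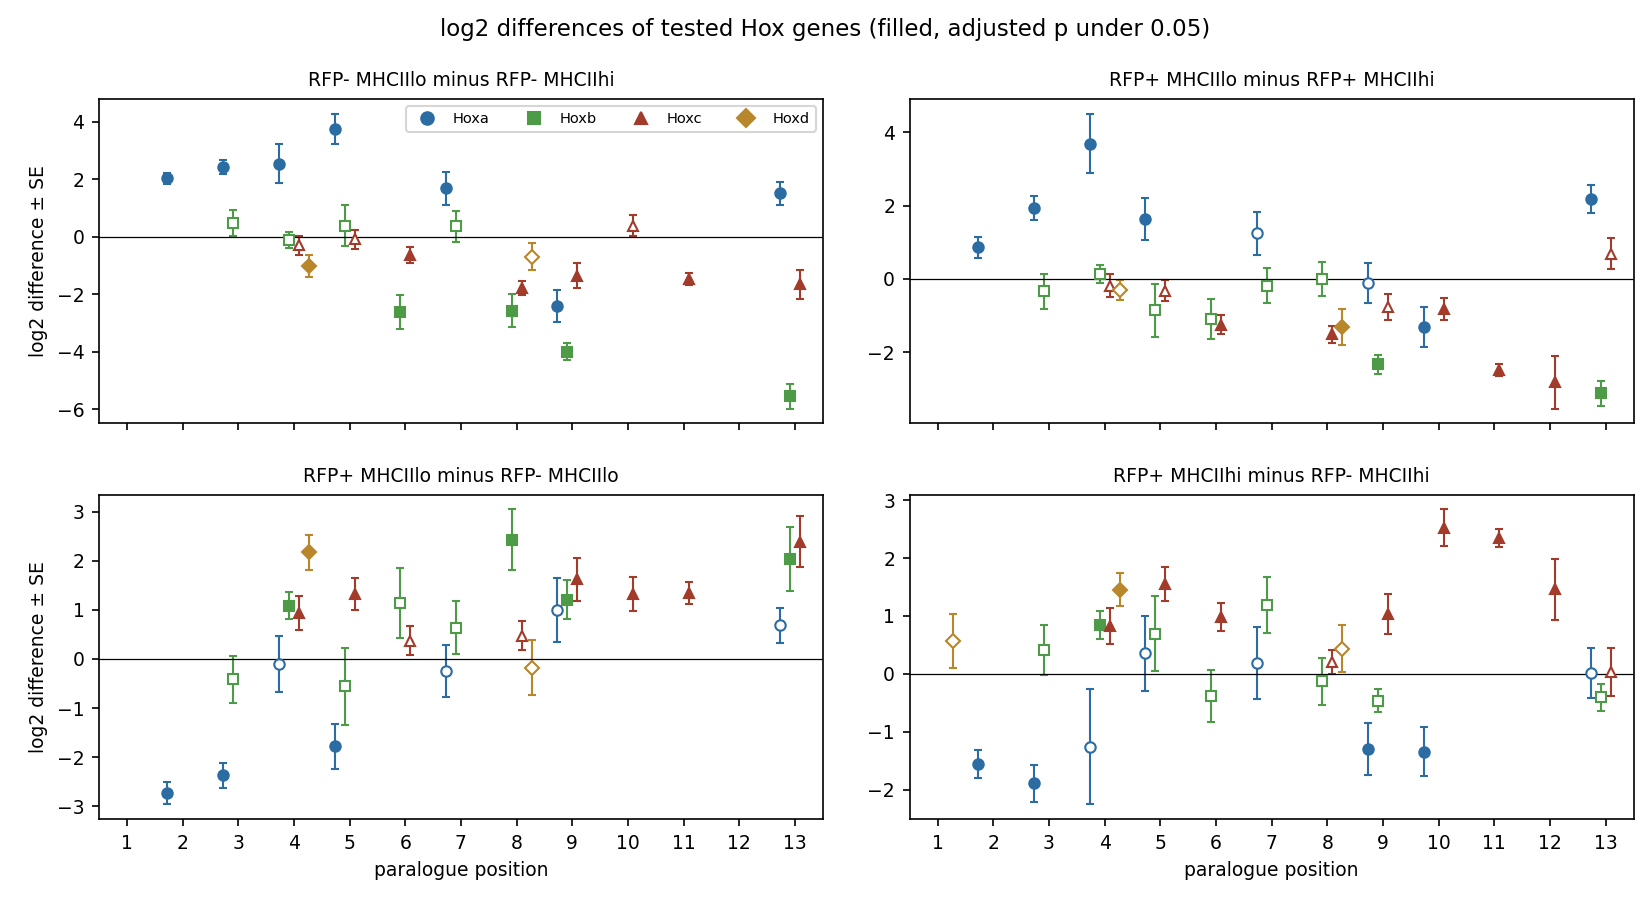
Log2 differences (± SE) of the tested Hox genes in the 4 comparisons of pairs of populations, by paralogue position, with the 4 clusters as separate symbols and filled symbols for an adjusted p under 0.05; genes with 3 or fewer reads in a group are left out. Blue circles (Hoxa) at positions 2 to 5 lie above 0 in both comparisons of MHCIIlo with MHCIIhi, and most symbols at positions 9 to 13 lie below 0 there.

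Within the MHCIIlo gate the question was how RFP+ cells, in which the Aire-driven Cre had acted, differed from RFP- cells. In RFP+ MHCIIlo against RFP- MHCIIlo, 12 Hox genes were higher, where 28.9% of all genes were, and 3 were lower, where 22.7% of all were. The median log2 difference was 1.04 over the Hox genes, or 0.97 with the genes that had no read in RFP- MHCIIlo at their bound, and 0.074 over all genes. The 3 that fell were Hoxa2 by 2.73 ± 0.23 (adjusted p = 5.4e-10), Hoxa3 by 2.37 ± 0.25 (adjusted p = 3.4e-08) and Hoxa5 by 1.78 ± 0.46 (adjusted p = 0.0025). Of the 12 that rose, 7 were posterior. Hoxa10, with 18 reads against none, was at least 5.99-fold higher (adjusted p = 0.0022). Hoxc13 rose by 2.39 ± 0.52 (adjusted p = 0.00047), Hoxb13 by 2.04 ± 0.65 (adjusted p = 0.011), Hoxc9 by 1.62 ± 0.44 (adjusted p = 0.0034), Hoxc11 by 1.34 ± 0.22 (adjusted p = 1.8e-05), Hoxc10 by 1.32 ± 0.35 (adjusted p = 0.0027) and Hoxb9 by 1.21 ± 0.40 (adjusted p = 0.014). The central ones were Hoxb8, which rose by 2.43 ± 0.61 (adjusted p = 0.0019), Hoxd4 by 2.17 ± 0.36 (adjusted p = 2.2e-05), Hoxc5 by 1.32 ± 0.33 (adjusted p = 0.0017), Hoxb4 by 1.09 ± 0.27 (adjusted p = 0.0018) and Hoxc4 by 0.94 ± 0.35 (adjusted p = 0.028). No anterior gene rose. The other 13 (Hoxa4, Hoxa7, Hoxa9, Hoxa13, Hoxb3, Hoxb5, Hoxb6, Hoxb7, Hoxc6, Hoxc8, Hoxc12, Hoxd1 and Hoxd8) did not pass.

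Several of these calls depended on few libraries or reads. Hoxa5 had a difference of -2.79 without RFP+ MHCIIlo replicate 4 (adjusted p = 2.0e-05), and -1.07 (adjusted p = 0.13) without RFP- MHCIIlo replicates 1 and 3. The latter were the highest of RFP- MHCIIlo for this gene, so leaving them out had to shrink its difference. Hoxa10 kept its call without RFP+ MHCIIlo replicate 4, which held 14 of its 18 reads (adjusted p = 0.025). Hoxb9 lost its call when replicate 3 of RFP- MHCIIlo (adjusted p = 0.061) or replicate 1 of RFP+ MHCIIlo (0.054) was left out, Hoxb13 without RFP+ MHCIIlo replicate 1 (0.071), and Hoxc4 without RFP- MHCIIlo replicate 2 (0.073) or 4 (0.098) or RFP+ MHCIIlo replicate 2 (0.11). Without RFP+ MHCIIlo replicates 1 and 4 together, Hoxb9 (0.14), Hoxb13 (0.071) and Hoxc10 (0.08) were lost, while Hoxa4, at -0.11 in the full set, passed at -2.81 (0.0035), Hoxc6 at 0.84 (0.019), and Hoxc12, with no read in RFP- MHCIIlo, as higher (0.015). These replicates held 11 and 34 of the 48 Hoxa4 reads of RFP+ MHCIIlo, so the lower Hoxa4 value follows from their choice. Hoxc12 also passed without RFP+ MHCIIlo replicate 1 (0.043) or 4 (0.036), Hoxa9 at 1.38 without RFP+ MHCIIlo replicate 1 (0.042), and Hoxa13 at 0.99 without RFP- MHCIIlo replicate 2 (0.041). With only the 8 MHCIIlo libraries in the fit, 6 of the 12 stayed higher and Hoxc4 lost its call (0.1), while Hoxa10, Hoxb8, Hoxb9, Hoxb13 and Hoxc13 had too few reads there to be tested. Mesenchyme markers were lower in RFP+ MHCIIlo for 7 of the 9 tested and higher for none. Of all genes, 22.7% were lower and 28.9% higher. Endothelial markers were lower for 7 of 9 and higher for 1, and parathyroid markers were lower for 3 of 4 and higher for 1. Mesothelium markers were lower for 5 of 6, as were smooth muscle and pericyte markers, and none was higher. Tuft cell markers were higher for 5 of 5, at a sum of 1696 to 2555 against 806.1 to 1351 CPM. Intestinal markers were higher for 6 of 7, myeloid markers for 5 of 8 and thymocyte markers for 5 of 10, and none was lower. The part of these cell types in the Hox differences was not tested. Without RFP- MHCIIlo replicates 1 and 3 the difference was -2.78 for Hoxa2 (adjusted p = 3.3e-08) and -2.55 for Hoxa3 (2.8e-07), and Hoxb9 (0.15) and Hoxb13 (0.072) lost their calls. Both also lost them in limma-voom (0.052 and 0.097). Under library sizes alone the median of all genes moved by 0.155 and the genes called went from 56.0% to 68.8% higher.

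In the MHCIIhi gate 7 of 9 tested Hoxc genes were higher and 4 of 8 tested Hoxa genes lower with the label. In RFP+ MHCIIhi against RFP- MHCIIhi, 9 Hox genes were higher, where 23.8% of all genes were, and 4 were lower, where 21.2% of all were. The medians were 0.38 for Hox and -0.016 for all genes. Hoxc10 rose by 2.52 ± 0.32 (adjusted p = 5.7e-07), Hoxc11 by 2.35 ± 0.16 (adjusted p = 2.8e-11), Hoxc5 by 1.55 ± 0.29 (adjusted p = 0.00013), Hoxc12 by 1.46 ± 0.53 (adjusted p = 0.03), Hoxc9 by 1.04 ± 0.34 (adjusted p = 0.015), Hoxc6 by 0.98 ± 0.24 (adjusted p = 0.0018) and Hoxc4 by 0.83 ± 0.31 (adjusted p = 0.032). Hoxd4 rose by 1.46 ± 0.29 (adjusted p = 0.00023) and Hoxb4 by 0.84 ± 0.25 (adjusted p = 0.0075). The 4 that fell were Hoxa2 by 1.56 ± 0.24 (adjusted p = 1.3e-05), Hoxa3 by 1.89 ± 0.32 (adjusted p = 2.9e-05), Hoxa10 by 1.34 ± 0.42 (adjusted p = 0.013) and Hoxa9 by 1.30 ± 0.45 (adjusted p = 0.021). Among the other 15, Hoxb7 (1.19 ± 0.49, adjusted p = 0.052) and Hoxb9 (-0.46 ± 0.20, adjusted p = 0.064) missed the threshold although their libraries did not overlap. The rest (Hoxa4, Hoxa5, Hoxa7, Hoxa13, Hoxb3, Hoxb5, Hoxb6, Hoxb8, Hoxb13, Hoxc8, Hoxc13, Hoxd1 and Hoxd8) ran from -1.26 to 0.69.

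Among these calls, Hoxc11, Hoxc10, Hoxc5, Hoxc6, Hoxd4, Hoxb4, Hoxa2, Hoxa3 and Hoxa10 were kept in all alternatives. Hoxc12 lost its call without RFP- MHCIIhi replicate 3 or 4 or any RFP+ MHCIIhi library (adjusted p 0.059 to 0.11), without a filter (0.072), with a minimum count of 3 (0.052) and in DESeq2 (0.071). Hoxc4 lost it without RFP- MHCIIhi replicate 2, 3 or 4 or RFP+ MHCIIhi replicate 1, 2 or 3 (0.065 to 0.076). Hoxc9 lost it without RFP- MHCIIhi replicate 1 or 2 or RFP+ MHCIIhi replicate 3 (0.055 to 0.061), and Hoxa9 without RFP- MHCIIhi replicate 4 or RFP+ MHCIIhi replicate 1, 3 or 4 (0.055 to 0.073). Some genes gained a call. Hoxb7 passed as higher in limma-voom (0.028) and with only the libraries of this comparison (0.0062), among other alternatives. Hoxb9 passed as lower in DESeq2 (0.047) and limma-voom (0.019), among others, and Hoxb13 passed as lower with only those libraries (0.031). Thymocyte markers (Ptprc, Cd3e and 8 others) summed to 314 to 692.5 CPM in RFP- MHCIIhi and 89.24 to 145.7 CPM in RFP+ MHCIIhi, and their part in the Hoxa9 difference was not tested. The 7 intestinal markers summed to 254 to 269 CPM in RFP- MHCIIhi and 441.1 to 495.1 CPM in RFP+ MHCIIhi, where 5 of the 7 were higher and none lower. All 5 tuft cell markers were higher there too, at 277.9 to 367.1 against 65.16 to 82.15 CPM. Of 8 myeloid markers 4 were higher and none lower, at 678.2 to 701.3 against 429.5 to 512 CPM. Of all genes, 23.8% were higher and 21.2% lower. The part of these cell types in the Hoxc differences was not tested either.

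Members too low for the filtered test were also fitted without a filter. In RFP- MHCIIlo against RFP- MHCIIhi that fit called Hoxa6 higher (adjusted p = 0.015) and Hoxd13 (adjusted p = 3.9e-05), Hoxd10 (0.00015), Hoxd3 (0.0057), Hoxb1 (0.0059) and Hoxa11 (0.029) lower. In RFP+ MHCIIlo against RFP+ MHCIIhi it called Hoxd3 (adjusted p = 8.0e-05), Hoxd10 (8.3e-05), Hoxd13 (0.0015) and Hoxb1 (0.01) lower. With the label, Hoxd12 was higher (adjusted p = 0.039) and Hoxa6 lower (0.042) in MHCIIlo, and Hoxd3 was higher in MHCIIhi (0.049). All 7 Hoxd12 reads of RFP+ MHCIIlo came from replicate 4, so that call rests on 1 library. These genes rest on the few reads given above, and Hoxd10 had no read in MHCIIlo cells. The share of all genes called without a filter is not given here, and the shares above belong to the filtered fit. Whether these calls are more frequent than among all genes is therefore not known.

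The 4 comparisons share populations, so a gene called in several of them is not several independent results. Hoxa2, Hoxa3, Hoxa10 and Hoxc11 were called in all 4. Whether the RFP difference itself differed between the gates was tested as an interaction, the log2 difference of RFP+ against RFP- in MHCIIlo minus that in MHCIIhi. It was above 0 for 6 Hox genes, where 17.5% of all genes were called higher, and below 0 for 3, where 16.6% of all were called lower. The medians were 0.25 for Hox genes, or 0.18 with groups without a read at their bound, and 0.039 for all genes. The 6 were the posterior Hoxa9 (2.30 ± 0.79, adjusted p = 0.028), Hoxa10 (adjusted p = 0.0007), Hoxb9 (1.67 ± 0.45, adjusted p = 0.0055), Hoxb13 (2.44 ± 0.69, adjusted p = 0.0079) and Hoxc13 (2.35 ± 0.67, adjusted p = 0.0089) and the central Hoxb8 (2.56 ± 0.74, adjusted p = 0.01). No size is given for Hoxa10, which had no read in RFP- MHCIIlo. The 3 below 0 were Hoxa2 (-1.18 ± 0.35, adjusted p = 0.011), Hoxa5 (-2.13 ± 0.80, adjusted p = 0.044) and Hoxc11 (-1.01 ± 0.28, adjusted p = 0.0069). Hoxa2 thus fell with the label in both gates and more so in MHCIIlo cells, and Hoxc11 rose in both and more so in MHCIIhi cells. Hoxa5 lost the call without any 1 of RFP- MHCIIhi replicates 1, 2 and 4, RFP- MHCIIlo replicates 1 and 3, RFP+ MHCIIhi replicates 2, 3 and 4 and RFP+ MHCIIlo replicates 1, 2 and 3 (adjusted p 0.053 to 0.089), and was -3.15 without RFP+ MHCIIlo replicate 4. Hoxa9 lost it without RFP- MHCIIhi replicate 4 (adjusted p = 0.058), RFP- MHCIIlo replicate 1 (0.059), RFP+ MHCIIhi replicate 1 (0.057) or RFP+ MHCIIlo replicate 4 (0.17, with a difference of 1.56). In limma-voom Hoxa9 (adjusted p = 0.14) and Hoxb13 (0.056) lost the call, and Hoxa5 lost it with library sizes alone (0.055). Hoxc10, at -1.21 in the full set (0.053), passed in DESeq2 (0.035), without a filter (0.014) and without RFP- MHCIIhi replicate 3 (0.021), among other alternatives. Hoxc6, at -0.61 (0.24), passed without RFP+ MHCIIlo replicate 2 (0.02). Without RFP- MHCIIlo replicates 1 and 3 together, Hoxa5 (0.22), Hoxa9 (0.12), Hoxb9 (0.059) and Hoxb13 (0.052) were lost, and without RFP+ MHCIIlo replicates 1 and 4 together Hoxb8 (0.073) and Hoxb9 (0.051) were. The first choice left out the highest RFP- MHCIIlo libraries for Hoxa5, so its difference had to shrink. Under library sizes alone the median of all genes moved by 0.216 and the genes called went from 51.4% to 72.0% higher.

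Between the outermost Hox genes of each cluster the files hold 45 other genes, of which 9 were tested, 10 had a mean of at least 1 CPM in a population and 12 had no read. The 7 in the Hoxa cluster whose mean reached 1 CPM somewhere had their highest means in RFP- MHCIIlo. Of those below it, Hoxa11os, Gm27817 and 9530018H14Rik were highest elsewhere. Hoxaas2, Hoxaas3, 5730596B20Rik, Gm27477 and Gm29430 reached 1 CPM in RFP- MHCIIlo alone, so the cut itself favoured that population. Hoxa3 shares exon bases with 5730596B20Rik, Gm29430, Hoxaas2 and Hoxaas3. With the strand setting unknown, the same reads may lie behind their patterns and that of Hoxa3. The antisense RNA Hotairm1 was at 3.08, 4.92, 3.33 and 3.36 CPM in RFP- MHCIIlo against 1.86, 1.03, 1.23 and 2.01 in RFP- MHCIIhi, and at 0.972, 1.10, 1.45 and 0.580 in RFP+ MHCIIlo against 0.0780, 0.292, 0.549 and 0.351 in RFP+ MHCIIhi. The annotated gene 5730596B20Rik was at 4.78, 4.33, 4.35 and 3.70 CPM in RFP- MHCIIlo against at most 0.804 in any other library. Means in RFP- MHCIIlo and RFP+ MHCIIlo were 5.47 and 0.774 CPM for Gm15050, 2.80 and 0.596 for Hoxaas2, 2.12 and 0.748 for Hoxaas3, 1.52 and 0.687 for Gm27477, and 1.17 and 0.0829 for Gm29430. All of these except Gm29430 were tested, and each was higher in RFP- MHCIIlo than in RFP- MHCIIhi (log2 1.12 to 2.83) and than in RFP+ MHCIIlo.

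In the other clusters the named neighbours were highest in MHCIIhi cells. Hotair, the antisense RNA between Hoxc11 and Hoxc12, was at 4.83, 7.52, 8.45 and 5.89 CPM in RFP+ MHCIIhi against 0.139, 1.55, 1.15 and 1.15 in RFP- MHCIIhi, and at 0.648, 0.609, 1.45 and 0.8292 in RFP+ MHCIIlo against 0.106, 0.0848, 0.0853 and 0.602 in RFP- MHCIIlo. All RFP+ MHCIIhi libraries lay above all others, and the log2 difference to RFP- MHCIIhi was 2.80 ± 0.40 (adjusted p = 3.8e-06). Gm53, a non-coding gene between Hoxb9 and Hoxb13, was at 3.48, 3.74, 3.30 and 3.50 CPM in RFP- MHCIIhi against 2.11, 2.10, 1.81 and 2.32 in RFP+ MHCIIhi, and at 1.62, 0.975, 1.97 and 2.90 in RFP+ MHCIIlo against 0.425, 0.594, 0.853 and 0.774 in RFP- MHCIIlo. It fell by 2.37 ± 0.31 on the log2 scale between RFP- MHCIIhi and RFP- MHCIIlo (adjusted p = 3.9e-07). Haglr in the Hoxd cluster had means of 1.07 CPM in RFP+ MHCIIhi, 0.657 in RFP- MHCIIhi, 0.204 in RFP+ MHCIIlo and 0.0643 in RFP- MHCIIlo.

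**Figure D5:**
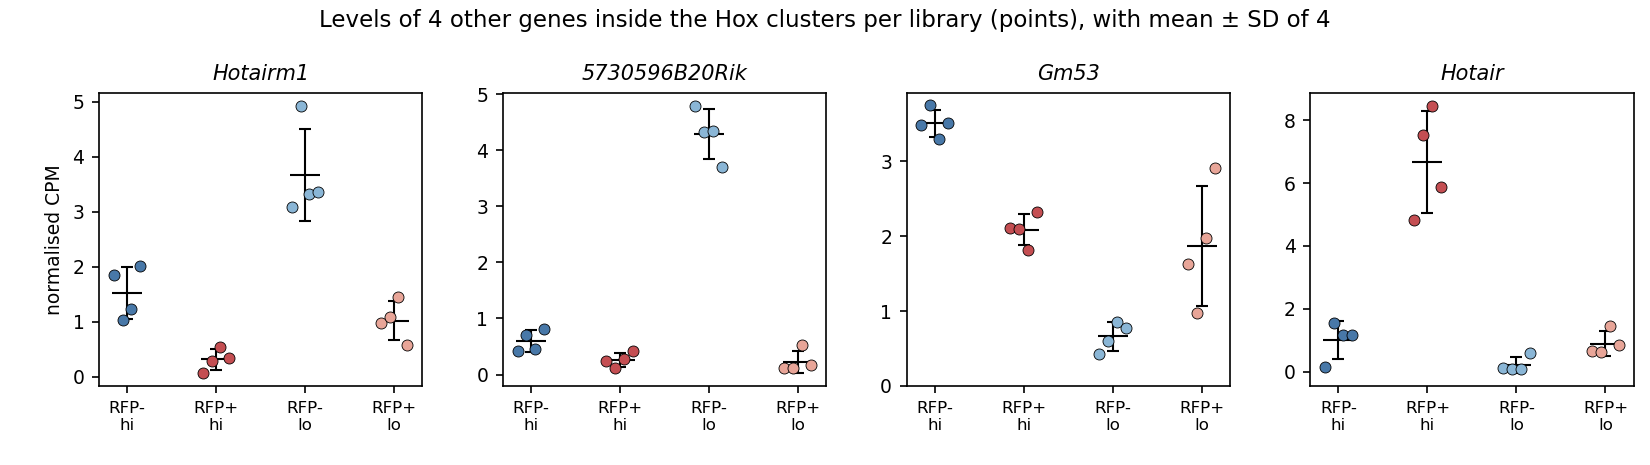
Normalised CPM of 4 other genes that lie inside the Hox clusters, 1 point per library with the mean and SD of the 4 replicates as bars, on linear y axes. Hotairm1 and 5730596B20Rik (Hoxa cluster) are highest in RFP- MHCIIlo, Gm53 (Hoxb) in RFP- MHCIIhi and Hotair (Hoxc) in RFP+ MHCIIhi.

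Other genes of the Hox system were read from lists of cofactors and regulators. Of 9 cofactors of the Pbx, Meis and Pknox families, which bind DNA together with Hox proteins, 7 rose and 2 fell from RFP- MHCIIhi to RFP- MHCIIlo, where 33.5% of all genes rose and 35.6% fell, with a median log2 difference of 0.72. Meis1 rose by 1.62 ± 0.09 (adjusted p = 1.3e-13), from 33.3 ± 3.18 to 103 ± 9.86 CPM. Pbx4 fell by 1.36 ± 0.25 on the log2 scale (adjusted p = 4.2e-05). In RFP+ MHCIIlo against RFP+ MHCIIhi 5 were higher and none lower (27.5% and 28.1% of all genes). Against backgrounds of 22.7% lower and 28.9% higher, RFP+ MHCIIlo had 5 cofactors lower and 1 higher (Pbx4) than RFP- MHCIIlo, among them Pbx3, which fell by 1.36 ± 0.15 on the log2 scale (adjusted p = 5.0e-08). In RFP+ MHCIIhi against RFP- MHCIIhi, Meis3 was higher and Meis1 and Pknox1 were lower (23.8% and 21.2% of all genes). On the interaction, 1 was above 0 (Pbx4) and 6 were below (17.5% and 16.6%).

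Cdx genes, which activate posterior Hox genes in the embryo, and the ParaHox gene Pdx1, the pancreas regulator, were lower in RFP- MHCIIlo. All 4 tested genes fell there against RFP- MHCIIhi, where 35.6% of all genes did, with a median of -2.80, while Gsx1 and Gsx2 were too low to test. Cdx1 was at 189 ± 7.58 CPM in RFP- MHCIIhi, 158 ± 11.7 in RFP+ MHCIIhi, 35.0 ± 8.18 in RFP- MHCIIlo and 61.6 ± 7.39 in RFP+ MHCIIlo. It fell by 2.43 ± 0.12 on the log2 scale in the RFP- comparison (adjusted p = 1.7e-14) and by 1.36 ± 0.11 in the RFP+ comparison (adjusted p = 6.3e-10), where none of the other 3 passed. Cdx1 and Pdx1 were higher in RFP+ MHCIIlo than in RFP- MHCIIlo, where 28.9% of all genes were, and none of the 4 differed at the threshold between the MHCIIhi populations. Cdx1, Cdx2 and Pdx1 were above 0 on the interaction (17.5% of all genes).

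Of 21 Polycomb and trithorax genes, which keep Hox genes silent or active, 14 rose and 5 fell from RFP- MHCIIhi to RFP- MHCIIlo, where 33.5% of all genes rose and 35.6% fell. The methyltransferase Ezh2, the catalytic subunit of Polycomb complex 2, fell by 1.37 ± 0.08 on the log2 scale (adjusted p = 9.4e-13), while its paralogue Ezh1 rose by 1.00 ± 0.08 (adjusted p = 5.6e-11), the Polycomb gene Pcgf2 by 1.37 ± 0.11 (adjusted p = 5.3e-11) and the trithorax methyltransferase Kmt2a by 1.09 ± 0.10 (adjusted p = 1.3e-09). In RFP+ cells 12 were higher and 1 (Ezh2) was lower in MHCIIlo (27.5% and 28.1% of all genes). Between the MHCIIlo populations 5 were higher and 6 lower with RFP (28.9% and 22.7% of all), and between the MHCIIhi populations 6 were higher and 7 lower (23.8% and 21.2%). The interaction was above 0 for 4 and below for 4 (17.5% and 16.6%).

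Retinoic acid activates anterior Hox genes in the embryo, and 16 genes of its pathway were all tested. Against RFP- MHCIIhi, 8 were higher and 8 lower in RFP- MHCIIlo, where 33.5% and 35.6% of all genes were. Those that rose were the receptors Rara, Rarb, Rarg, Rxra and Rxrb, the synthetic enzymes Aldh1a1 and Aldh1a2, and Dhrs3. Those that fell were the receptor Rxrg, the synthetic enzymes Aldh1a3 and Rdh10, the degrading enzymes Cyp26a1, Cyp26b1 and Cyp26c1, and the binding proteins Crabp1 and Crabp2. Crabp1 fell by 5.51 ± 0.38 on the log2 scale (adjusted p = 1.1e-11), from 82.2 ± 6.03 to 1.80 ± 1.10 CPM, Cyp26b1 by 4.10 ± 0.29 (adjusted p = 1.2e-11) and Cyp26a1 by 3.05 ± 0.13 (adjusted p = 2.5e-15). In the RFP+ comparison of gates 3 were higher and 6 lower (27.5% and 28.1% of all genes). With RFP, 5 were higher and 4 lower in MHCIIlo (28.9% and 22.7% of all), 5 higher and 5 lower in MHCIIhi (23.8% and 21.2%), and the interaction was above 0 for 5 and below for 6 (17.5% and 16.6%). Aldh1a2, which fell by 2.13 ± 0.28 on the log2 scale in RFP+ MHCIIlo against RFP- MHCIIlo (adjusted p = 1.1e-06), had a spread of 22.1 ± 12.9 CPM in RFP- MHCIIlo.

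Among 8 genes of the pharyngeal pouch and of thymus formation, in which Hoxa3 acts, 3 rose and 2 fell from RFP- MHCIIhi to RFP- MHCIIlo, where 33.5% of all genes rose and 35.6% fell. Eya1 rose by 2.30 ± 0.10 (adjusted p = 2.0e-15) and Foxn1, the master regulator of thymic epithelium, fell by 1.39 ± 0.09 on the log2 scale (adjusted p = 9.1e-13). In the RFP+ comparison 2 were higher and 2 lower (27.5% and 28.1% of all genes). In RFP+ MHCIIlo, 6 of the 8 were lower than in RFP- MHCIIlo and 1 was higher (22.7% and 28.9% of all), and 3 were lower and 1 higher in RFP+ MHCIIhi than in RFP- MHCIIhi (21.2% and 23.8%). Pax1 fell with the label in both gates, by 1.91 ± 0.14 in MHCIIlo (adjusted p = 4.1e-11) and by 1.69 ± 0.13 in MHCIIhi (adjusted p = 2.9e-10). The interaction was above 0 for 1 and below for 2 (17.5% and 16.6%). These lists were chosen with earlier results of these data known.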

How the data were processed

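Poly(A) RNA of 16 sorted pools was amplified with NuGen Ovation V2, and Nextera XT was used for library preparation, per the labels. The deposited values are raw read counts per Ensembl gene, 1 file per library; STAR, DESeq2 and GRCm38 are named in the submitters' processing notes, while no source used here names the counter, the annotation release or the strand setting. Of 43432 gene IDs, 42462 were matched to GENCODE M21 symbols and 970 were not. The 4 groups of 4 were fitted together with edgeR 4.0.16 (quasi-likelihood, R 4.3.3) after filterByExpr with a minimum count of 10 and TMM scaling, which left 19617 genes. There were 5 contrasts with Benjamini-Hochberg adjustment and a threshold of 0.05. The script was tested on simulated data. CPM use TMM library sizes. The floor for groups without reads was 3 counts over the group, and read ratios have exact 95% intervals that cover counting error only.

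The Hox members and all lists were chosen with earlier results of these data known. Hox genes are named, except 1 that was too low to test and is not reported here, with values per library for called members, and from each other list at most 4 called genes with the largest differences per contrast; a few others are named to spell out counts. Labels name replicates but not whether pools share mice, so p-values measure the spread between these libraries, which may be technical. Replicate libraries differed beyond sampling noise (chi-square per degree of freedom 2.99 to 32.7 over 24 pairs). Alternatives were RLE scaling, library size only, no filter, a minimum count of 3, DESeq2 1.42.0, limma-voom (limma 3.58.1), a replicate block, only the groups of the contrast, each library left out, and 2 pairs of libraries left out, which were chosen after seeing the data.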

Additional observations from a re-analysis of the deposited data

Results flagged for a closer look

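In 9 of 112 sets of 4 libraries (1 gene in 1 population) the highest or lowest library lay far from the other 3. No chance rate is set beside this count. A set with reads in 1 library only, as for Hoxd1, is flagged whatever the number of reads. Hoxa5 was at 0.537 CPM in RFP- MHCIIhi replicate 3 against 0.323 to 0.345 in the others. Hoxa13 was at 0.772 CPM in RFP+ MHCIIhi replicate 4 against 0.546 to 0.583. Hoxb6 was at 1.45 CPM in RFP+ MHCIIlo replicate 3 against 0.216 to 0.332. Hoxc4 was at 2.18 CPM in RFP- MHCIIhi replicate 1 against 1.67 to 1.74, and at 2.67 CPM in RFP+ MHCIIhi replicate 4 against 3.4 to 3.5. Hoxc6 was at 2.46 CPM in RFP- MHCIIhi replicate 1 against 3.45 to 3.62. Hoxc9 was at 4.07 CPM in RFP- MHCIIhi replicate 3 against 1.42 to 1.78. Hoxd1 had reads only in replicate 4 of each MHCIIlo population, namely 1 read (0.086 CPM) in the RFP- and 3 reads (0.249 CPM) in the RFP+ population.

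For 9 members the RFP difference differed between the MHC class II gates, by edgeR's quasi-likelihood test of the interaction. The log2 difference of differences, MHCIIlo minus MHCIIhi, was -1.18 for Hoxa2 (adjusted p = 0.011), -2.13 for Hoxa5 (0.044) and -1.01 for Hoxc11 (0.0069). It was 2.30 for Hoxa9 (adjusted p = 0.028), 2.56 for Hoxb8 (0.01), 1.67 for Hoxb9 (0.0055), 2.44 for Hoxb13 (0.0079) and 2.35 for Hoxc13 (0.0089). The fitted value of 6.94 for Hoxa10 (adjusted p = 0.0007) depends on the prior count, because RFP- MHCIIlo had no read, and is no bound.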

How the results depend on the processing

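Of the 72 called pairs of gene and contrast, 36 were called under each of the 26 alternatives and 12 under each of the 25 that gave a value, and 24 lost the call under at least 1. None of the 72 changed sign. With only the libraries of the contrast in the fit, the Hox genes called higher went from 5 to 2 in RFP+ MHCIIlo against RFP+ MHCIIhi and from 12 to 6 in RFP+ MHCIIlo against RFP- MHCIIlo. Of these losses, 2 (Hoxa4 and Hoxa5) and 5 were genes too low to be tested in that fit, and 1 in each contrast (Hoxa2 and Hoxc4) was tested and missed the threshold. In the latter contrast those called lower went from 3 to 5 without a filter and also to 5 without RFP+ MHCIIlo replicates 1 and 4. The 2 added without a filter were members untested in the main fit. Without replicates 1 and 4, Hoxa4 was the added gene among those tested in the main fit. The filter was applied anew in each fit, so these counts and those below can include members untested in the main fit. The interaction was above 0 for 3 genes, not 6, without RFP- MHCIIlo replicates 1 and 3. Leaving out 1 library gave 6 to 7 higher and 13 to 15 lower for the RFP- gates, 5 to 6 and 8 to 11 for the RFP+ gates, 11 to 13 and 3 to 4 for the label in MHCIIlo, 6 to 11 and 3 to 6 for the label in MHCIIhi, and 5 to 6 and 2 to 4 for the interaction.

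Same-numbered libraries had correlations of deviations of -0.0191 to 0.129 (median 0.057, 24 pairs). In the other 72 pairs these were -0.121 to 0.079 (median -0.017), and 15 of 16 libraries were closest to their own number. Libraries of the same number thus resembled each other slightly more, and the labels do not say why. The main fit did not use the numbers, and the replicate block was fitted as an alternative. With the replicate block 6 Hox genes were higher and 14 lower for the RFP- gates, 5 and 11 for the RFP+ gates, 12 and 3 for the label in MHCIIlo, 9 and 4 in MHCIIhi, and 6 and 3 for the interaction. Depth limits the family: 386 to 1617 Hox reads per library leave 11 members untested under the filter, some of which were called without it.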
